A study of Mus musculus with 4 samples.

Results

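NFAT proteins, the phosphatase calcineurin and the proteins of store-operated calcium entry form 1 signalling route, and 10 genes that encode its core were described: *Nfatc1*, *Nfatc2*, *Nfatc3*, *Nfat5*, *Ppp3ca*, *Ppp3cb*, *Ppp3r1*, *Rcan1*, *Stim1* and *Orai1*. They were taken by gene symbol out of the 25239 symbols that each deposited count file lists, and all 10 passed the filter on low counts. When a T cell receptor is engaged, phospholipase C gamma releases inositol trisphosphate, which opens channels of the endoplasmic reticulum, and STIM1 senses the falling calcium store and opens the ORAI1 channel of the plasma membrane. The calcium that enters binds calmodulin, calmodulin activates calcineurin, and calcineurin removes phosphates from NFATc1, NFATc2 and NFATc3 so that they enter the nucleus. NFAT5 lacks the calcineurin docking region of its relatives and responds to osmotic stress, and RCAN1 is an inhibitor of calcineurin whose gene is itself an NFAT target.

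The RNA came from CD4+ T cells that infiltrated lung tumors of mice on a C57BL/6 background, measured by RNA-Seq. The 2 control libraries are labelled WT. The other 2 are labelled CD4/ALK4-KO, from CD4CreERT2+/-/Acvr1bfl/fl mice, in which tamoxifen activates a Cre recombinase driven by the mouse *Cd4* promoter, which deletes *Acvr1b*, the gene of the activin receptor ALK4. LLC-OVA, a line of Lewis lung carcinoma that carries ovalbumin, had been injected into a vein of all mice, and tumors were taken 18 to 22 days later per the labels, while the methods give another interval for this model. The mice were males of 8 to 10 weeks. Whether the WT mice carried Cre or received tamoxifen, and how many animals went into 1 library, is not given in the sources used here.

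The libraries held 11823908 to 13943237 counts. For *Acvr1b* 426 and 342 counts were found under the label WT, compared with 322 and 445 under CD4/ALK4-KO, so it did not separate the labelled genotypes, although counts over a whole gene can include exons outside the deleted part. The libraries held other cells besides CD4+ T cells: the macrophage and neutrophil gene *Lyz2* reached 4982 ± 996 CPM (counts scaled to the TMM-adjusted library size; SD, n = 2) under the label WT, against 51.7 ± 5.24 CPM for *Cd4* and 25.2 ± 2.05 CPM for *Cd8a*. The summed CPM of 9 T cell identity genes was 311 to 351 in the libraries labelled WT and 1871 to 1930 in those labelled CD4/ALK4-KO. All 9 were called higher, with a median log2 fold change of 2.43, as were 4 of 4 genes of CD8 and NK cells (summed CPM 67.4 to 79.2 against 287 to 416) and 5 of 5 genes of B cells (45.8 to 58.6 against 163 to 315). Of 7 macrophage and monocyte genes 1 was called higher, and their summed CPM, most of it *Lyz2*, overlapped between the labels (5632 to 6967 against 5689 to 6057). Taken singly they differed in direction. *Csf1r*, *Cd14* and *Fcgr1* were higher under CD4/ALK4-KO without overlap, *Adgre1* and *Mrc1* were lower without overlap, and *Cd68* and *Lyz2* overlapped. In such bulk libraries a larger share of T cells and more RNA per T cell cannot be told apart. Values are therefore also given on a T cell receptor scale, on which each library was scaled to the summed counts of *Cd3d*, *Cd3e*, *Cd3g* and *Cd247*. Over all genes tested, the median log2 fold change moved by -2.18 on that scale.

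Promoter sequence is shown for 2 of the genes because they lie at opposite ends of the results. On the TMM scale *Nfatc2* showed the largest rise of the 10 and *Rcan1*, the feedback inhibitor, did not rise. On the T cell receptor scale neither rose (log2 -0.14 and -2.50). The stretches are the 250 bases before a RefSeq start on GRCm38.p6, read 5′ to 3′ along the gene (minus strand for both genes), and capitals mark the core of the NFAT binding motif, GGAAA, or its reverse complement TTTCC.
Nfatc2, start used by the longest annotated gene span (chr2:168601658-168601907): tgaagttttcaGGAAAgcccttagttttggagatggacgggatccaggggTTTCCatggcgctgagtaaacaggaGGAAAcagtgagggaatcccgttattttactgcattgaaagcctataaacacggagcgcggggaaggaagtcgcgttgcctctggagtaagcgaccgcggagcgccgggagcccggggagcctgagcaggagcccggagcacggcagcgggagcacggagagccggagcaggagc
Rcan1, internal start (chr16:92400079-92400328): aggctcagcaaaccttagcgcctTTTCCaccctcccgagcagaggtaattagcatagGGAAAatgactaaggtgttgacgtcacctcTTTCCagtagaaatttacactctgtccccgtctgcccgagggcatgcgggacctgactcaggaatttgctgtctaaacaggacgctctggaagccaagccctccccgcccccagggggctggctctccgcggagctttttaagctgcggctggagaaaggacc
Rcan1, outer start (chr16:92466170-92466419): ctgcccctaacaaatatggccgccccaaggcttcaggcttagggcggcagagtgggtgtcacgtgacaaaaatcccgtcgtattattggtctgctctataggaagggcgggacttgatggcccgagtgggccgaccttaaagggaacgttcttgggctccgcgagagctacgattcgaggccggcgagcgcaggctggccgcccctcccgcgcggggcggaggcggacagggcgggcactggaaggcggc

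These letters occurred 3 times in the *Nfatc2* stretch and 3 times before the internal start of *Rcan1*, and were not found before its outer start. Outer here means the more upstream of the *Rcan1* starts shown, as the annotated gene span reaches further upstream, to 92470867. Of 32851 promoters of the same length in the RefSeq table, 55.6% held at least 1 copy and 6.39% held 3 or more, so a single copy is common. Of 11 windows found for 8 of the 10 genes, 6 held a copy. The window of *Ppp3cb* held 3 copies, that of *Nfat5* held 2, and those of *Stim1*, *Orai1* and *Ppp3r1* held 0. A further start of *Nfatc2*, whose sequence is not shown, held 1. A match of letters is no evidence of binding. The deposited counts sum over a gene and do not separate the RNA of the internal and the outer start of *Rcan1*.

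**Figure D1:**
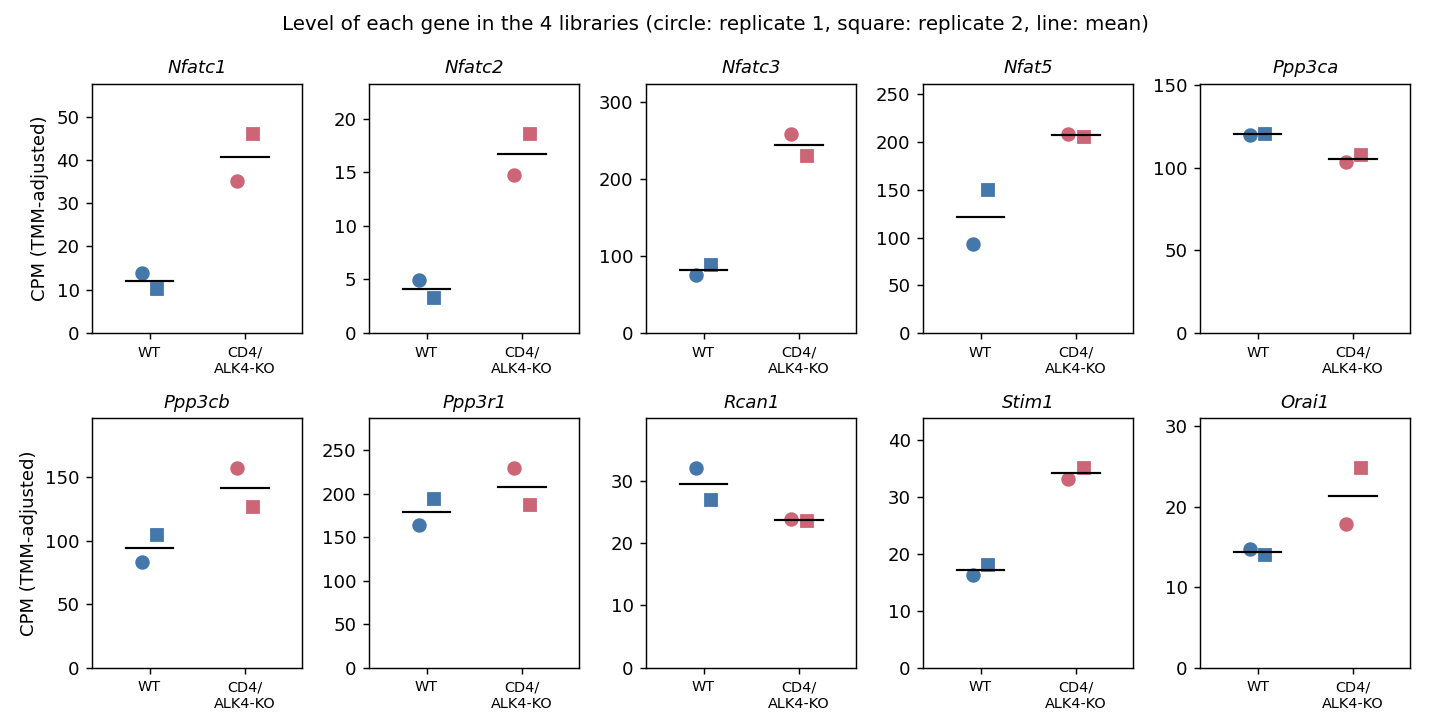
Level of each of the 10 genes in CPM (y axis, TMM-adjusted, starting at 0) in the libraries labelled WT (blue) and CD4/ALK4-KO (red), with circles for replicate 1, squares for replicate 2 and a line at the mean. *Nfatc1*, *Nfatc2*, *Nfatc3* and *Stim1* show the largest differences relative to their WT level, *Ppp3r1* overlaps, and *Ppp3ca* and *Rcan1* lie lower under CD4/ALK4-KO; on the T cell receptor scale all differences are negative.

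Of the 10 genes, 6 rose in the libraries labelled CD4/ALK4-KO on the TMM scale, 4 were not called and 0 were called lower, at an adjusted p under 0.05. Over all 13919 genes tested, 17.4% were called higher and 15.4% lower. The median log2 fold change of the 10 was 0.68, against -0.0082 over all genes tested. In CPM, 7 of the 10 were higher without overlap between the labels, 2 were lower without overlap and 1 overlapped, while 32.7% of all genes tested were higher and 34.0% lower without overlap. On the T cell receptor scale the picture turned: 0 of the 10 were called higher and 8 were called lower, where 0.345% of all genes were called higher and 92.0% lower, and the median was -1.52 against -2.19 over all genes.

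Among the NFAT genes of the 10, the 3 calcineurin-regulated ones showed the largest differences on the TMM scale, which turned negative on the T cell receptor scale. *Nfatc4*, a calcineurin-regulated NFAT gene outside the 10, had 36 and 34 counts under WT and 26 and 17 under CD4/ALK4-KO. It did not rise and was not called (log2 -0.53, adjusted p = 0.48). *Nfatc1* encodes NFATc1 (NFAT2), which T cells induce on stimulation, and lies on the minus strand of chromosome 18 between 80606205 and 80713071 (GRCm38, as all gene positions here). It had 13.9 and 10.1 CPM under WT and 35.2 and 46.1 CPM under CD4/ALK4-KO. Each CD4/ALK4-KO value was above both WT values, and the difference of 1.76 on the log2 scale had a standard error of 0.27 (adjusted p = 2.6e-05). *Nfatc2* encodes NFATc2 (NFAT1), which resting T cells already hold in the cytoplasm, and lies on chromosome 2 from 168476410 to 168601657. It was the scarcest of the 10 genes, with 68 and 44 counts under WT and 176 and 230 under CD4/ALK4-KO. That is 4.11 ± 1.21 CPM against 16.7 ± 2.72 CPM (SD, n = 2), a 4.06-fold rise (log2 2.02, standard error 0.33, adjusted p = 5.7e-05). *Nfatc3*, on chromosome 8 from 106058840 to 106130537, encodes a further calcineurin-regulated family member. It had 75.2 and 88.6 CPM against 259 and 230 CPM, and it rose 2.99-fold, with the smallest adjusted p of the 10 genes (9.7e-06, log2 1.58, standard error 0.22). Only 1.87% of its exonic bases overlap those of *Esrp2* on the opposite strand. Without any 1 of the libraries, the log2 differences ran from 1.54 to 2.00 for *Nfatc1*, from 1.74 to 2.35 for *Nfatc2* and from 1.46 to 1.69 for *Nfatc3*, and each call held.

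The osmotic stress factor gene *Nfat5* (chromosome 8, 107293470 to 107379517) differed less than *Nfatc1*, *Nfatc2* and *Nfatc3* on the TMM scale. Its values were 93.1 and 150 CPM under WT and 209 and 205 CPM under CD4/ALK4-KO, so that the spread lay mainly between the WT libraries. The log2 difference of 0.77 (standard error 0.23) had an adjusted p of 0.015. Without WT replicate 1 it was 0.46 and no longer called (adjusted p = 0.46), and without WT replicate 2 it was 1.15.

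Calcineurin is a pair of a catalytic A subunit and a regulatory B subunit, and its genes differed from one another. *Ppp3ca* (chromosome 3, 136670124 to 136937727) encodes the alpha form of the catalytic subunit. It had 120 and 121 CPM under WT against 103 and 107 CPM under CD4/ALK4-KO, and although the labels did not overlap the log2 difference of -0.19 (standard error 0.21, adjusted p = 0.52) was not called. *Ppp3cb* (chromosome 14, 20499364 to 20546573) encodes the beta form. It rose from 83.4 and 104 CPM to 157 and 126 CPM, with a log2 difference of 0.59 (standard error 0.22, adjusted p = 0.040). This call was near the threshold and was lost without CD4/ALK4-KO replicate 1 (0.46, adjusted p = 0.066), without WT replicate 1 (0.43, adjusted p = 0.48) and without WT replicate 2 (0.75, adjusted p = 0.13). *Ppp3r1* (chromosome 11, 17159263 to 17200375) encodes the regulatory subunit. Its 164 and 194 CPM under WT overlapped with 230 and 187 CPM under CD4/ALK4-KO (log2 0.21, standard error 0.22, adjusted p = 0.49). *Wdr92* shares 14.3% of the exonic bases of *Ppp3r1* on the same strand, where reads of both genes can be assigned to either or dropped.

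*Rcan1*, the calcineurin inhibitor gene whose promoters are shown above (gene span chromosome 16, 92391953 to 92470867), was not called. It had 32.0 and 26.9 CPM under WT and 23.9 and 23.5 CPM under CD4/ALK4-KO. Both CD4/ALK4-KO values lay below both WT values, with a log2 difference of -0.31 (standard error 0.24, adjusted p = 0.34). Leaving out each library in turn gave -0.44 to -0.19.

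Of the store-operated calcium entry genes, the store sensor gene *Stim1* (chromosome 7, 102267806 to 102437319) rose 1.98-fold on the TMM scale (log2 -1.20 on the T cell receptor scale). It had 16.3 and 18.1 CPM under WT and 33.2 and 35.0 CPM under CD4/ALK4-KO, a gap far wider than that between replicates. The log2 difference was 0.98 (standard error 0.25, adjusted p = 0.0040), and without WT replicate 1 it was 0.90 with an adjusted p of 0.11. The channel gene *Orai1* (chromosome 5, 123015074 to 123030456) had 202 and 189 counts against 212 and 306, or 14.4 ± 0.54 against 21.3 ± 4.93 CPM (SD, n = 2). Its labels did not overlap, but the log2 difference of 0.57 (standard error 0.27) was not called at an adjusted p of 0.11. It was 0.82 and called without CD4/ALK4-KO replicate 1 (adjusted p = 0.012), and 0.31 without CD4/ALK4-KO replicate 2.

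**Figure D2:**
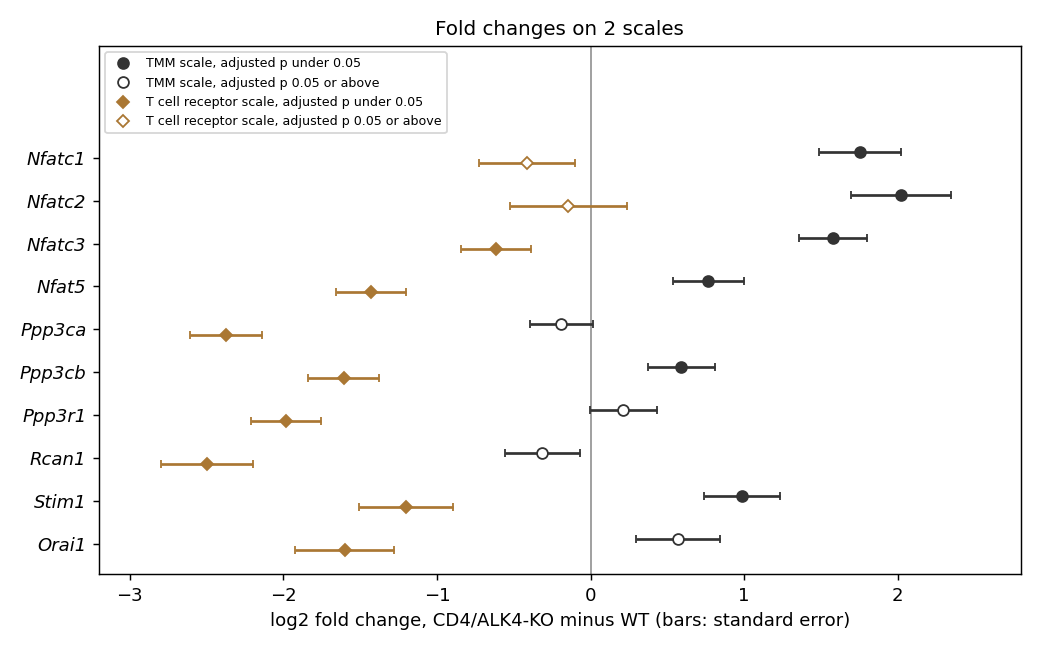
Log2 fold change (x axis, CD4/ALK4-KO minus WT, bars are standard errors) of the 10 genes on the TMM scale (circles) and on the T cell receptor scale (diamonds), filled where the adjusted p is under 0.05. On the T cell receptor scale all 10 values lie below 0, from -2.50 for *Rcan1* to -0.14 for *Nfatc2*, and *Nfatc1* and *Nfatc2* are not called.

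The T cell receptor scale shifts every gene by nearly the same amount (median log2 -2.18), so the order of the genes was largely fixed beforehand. Only *Orai1* and *Ppp3cb*, which lie close together on both scales, changed places. Counted per 1000 reads of the 4 T cell receptor complex genes, *Nfatc2* had 25.7 and 17.9 reads under WT and 16.3 and 23.2 under CD4/ALK4-KO. *Nfatc1* had 72.1 and 55.8 against 38.9 and 57.3 reads per 1000. For both genes the labels overlapped, and on this scale the log2 differences of -0.14 (adjusted p = 0.71) and -0.41 (adjusted p = 0.20) were not called. The other 8 genes were lower under CD4/ALK4-KO without overlap. *Nfatc3* had 389 and 488 against 286 and 286 reads per 1000 (log2 -0.62, adjusted p = 0.0075), whereas *Ppp3ca* had 619 and 666 against 114 and 134 (log2 -2.37) and *Rcan1* had 165 and 148 against 26.4 and 29.2 (log2 -2.50). *Stim1* was at -1.20, *Nfat5* at -1.43, *Orai1* at -1.60, *Ppp3cb* at -1.61 and *Ppp3r1* at -1.98 on the log2 scale. The part of T cell, CD8 and NK cell and B cell content in the rise of the NFAT genes was not tested. On the scale set by the receptor genes, *Nfatc1* and *Nfatc2* overlapped between the labels.

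Levels of different genes were compared as CPM per kb of exonic bases. Under WT, *Ppp3r1* stood highest with 55.6 ± 6.58 CPM per kb (SD, n = 2), followed by *Ppp3ca* (12.1 ± 0.074), *Ppp3cb* (10.7 ± 1.69), *Rcan1* (9.54 ± 1.16), *Nfatc3* (6.98 ± 0.81), *Nfat5* (6.62 ± 2.19), *Orai1* (6.26 ± 0.24), *Stim1* (1.66 ± 0.12), *Nfatc1* (1.61 ± 0.36) and *Nfatc2* (0.39 ± 0.11). Neighbours in that order whose values overlapped were *Ppp3cb* with *Rcan1*, *Nfatc3* with *Nfat5*, *Nfat5* with *Orai1*, and *Stim1* with *Nfatc1*. Under CD4/ALK4-KO, *Ppp3r1* again stood highest (64.5 ± 9.36 CPM per kb), now followed by *Nfatc3* (20.9 ± 1.74), *Ppp3cb* (16.1 ± 2.46), *Nfat5* (11.3 ± 0.14), *Ppp3ca* (10.6 ± 0.29), *Orai1* (9.28 ± 2.15), *Rcan1* (7.67 ± 0.085), *Nfatc1* (5.44 ± 1.03), *Stim1* (3.29 ± 0.12) and *Nfatc2* (1.58 ± 0.26). There only *Ppp3ca* and *Orai1* overlapped as neighbours. In CPM per kb, *Nfatc3* thus stood below *Ppp3ca*, *Ppp3cb* and *Rcan1* under WT and above them under CD4/ALK4-KO.

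The make-up of each gene family within a library does not depend on how libraries are scaled against each other. Shares were taken of the summed CPM per kb of a family. The 4 NFAT genes are those described here and leave out *Nfatc4*. That gene had 0.44 ± 0.014 CPM per kb under WT and 0.31 ± 0.098 under CD4/ALK4-KO. *Nfat5* held 36.7% and 47.0% of the 4 NFAT genes under WT and 28.7% and 28.8% under CD4/ALK4-KO, while *Nfatc3* held 46.4% and 43.5% against 55.8% and 50.7%. The share of *Nfatc1* overlapped between the labels (13.5% and 7.80% against 11.9% and 15.9%). That of *Nfatc2* was larger under CD4/ALK4-KO without overlap (3.40% and 1.77% against 3.53% and 4.55%). Among the 3 catalytic calcineurin genes, *Ppp3ca* held 42.3% and 38.3% under WT and 23.4% and 25.1% under CD4/ALK4-KO, and *Ppp3cc*, the gene of the gamma form, went the other way, with 24.4% and 24.2% against 36.4% and 41.6%. The share of *Ppp3cb* overlapped. *Stim1* held 26.5% and 28.6% of the 2 STIM genes under WT and 39.3% and 35.1% under CD4/ALK4-KO. *Orai1* held 36.4% and 34.7% of the 3 ORAI genes against 31.8% and 35.5%, an overlap, whereas *Orai2* held 15.7% and 18.6% against 25.7% and 29.5%. Among the RCAN genes (*Rcan1*, *Rcan2* and *Rcan3*), *Rcan1* held 84.1% and 77.6% under WT and 58.6% and 50.1% under CD4/ALK4-KO. *Rcan3*, named here after its values were seen, held 10.7% and 13.4% against 34.7% and 45.8%. With 2 libraries a label these shares carry no test. They also depend on the mix of cells in a library, which differed between the labels, and its part in the shares was not tested.

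**Figure D3:**
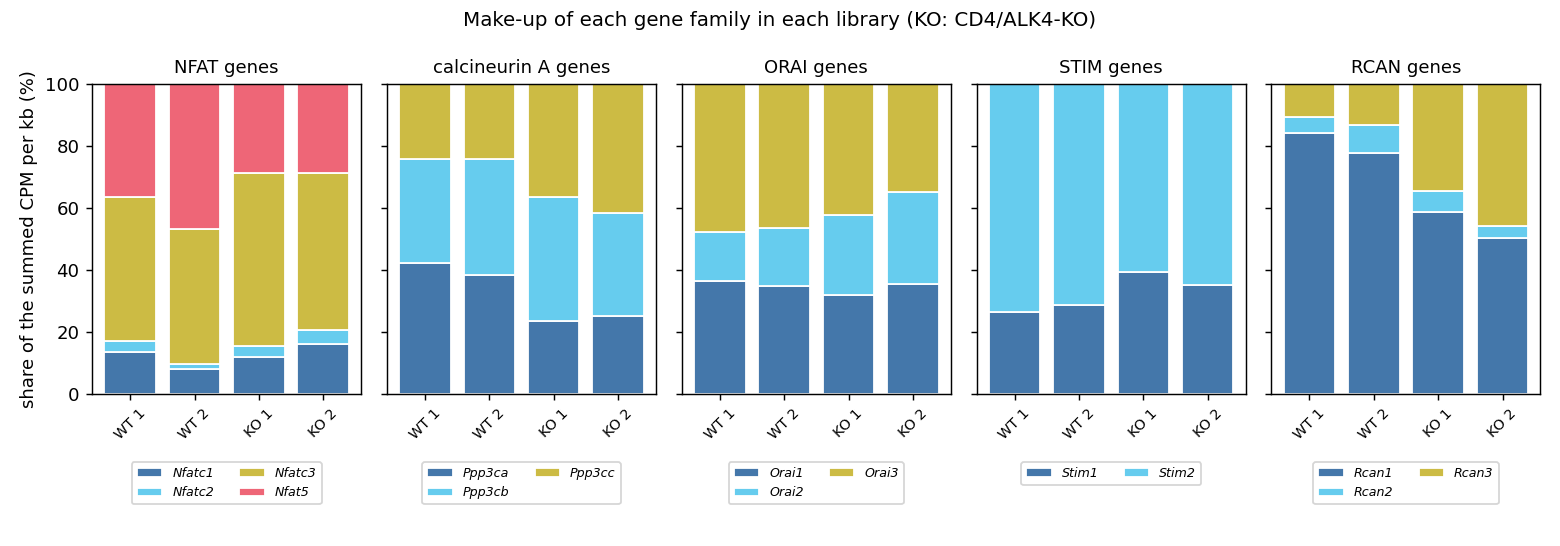
Share (y axis, percent) that each gene takes of the summed CPM per kb of its family in each of the 4 libraries (x axis, KO is CD4/ALK4-KO). The NFAT family is shown without *Nfatc4*. *Ppp3ca*, *Rcan1*, *Nfat5*, *Orai3* and *Stim2* take smaller shares in both CD4/ALK4-KO libraries than in either WT library. *Ppp3cc*, *Rcan3*, *Orai2*, *Stim1*, *Nfatc3* and *Nfatc2* take larger ones.

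The remaining genes of the route were read from 8 lists holding 61 genes, of which 56 were tested. On the TMM scale 28 were called higher and 5 lower, beside 17.4% and 15.4% of all genes tested, with a median log2 fold change of 0.68. On the T cell receptor scale the median was -1.50, with 1 called higher and 41 lower, beside 0.345% and 92.0% of all genes tested. These shares of all genes also stand beside the counts of each list below. Upstream of the store, 4 of 5 calcium release genes rose on the TMM scale. On the T cell receptor scale 0 were called higher and 3 lower, beside 92.0% lower over all genes tested. *Itpr2* and *Itpr1* encode inositol trisphosphate receptors, the release channels of the endoplasmic reticulum. *Itpr2* had 18.3 ± 1.57 CPM under WT and 119 ± 1.27 CPM under CD4/ALK4-KO (log2 2.70, adjusted p = 2.8e-08; 0.51 on the T cell receptor scale), and *Itpr1* was at 1.70 (-0.49). *Plcg1*, the phospholipase C gamma of T cells, was at 1.72 (-0.45) and *Plcg2*, the form of B cells and myeloid cells, at 1.23 (-0.94). *Itpr3* was not called (0.24), but was at 0.62 and called without CD4/ALK4-KO replicate 1 (adjusted p = 0.016) and at -0.23 without CD4/ALK4-KO replicate 2.

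Of the 6 partners of calcium entry, 3 rose on the TMM scale. *Cracr2a*, which encodes a regulator of ORAI1 channels, had 69 and 44 counts against 249 and 420, a log2 difference of 2.73 (adjusted p = 1.4e-06; 0.57 on the T cell receptor scale). *Orai2*, a further channel gene, was at 1.34 (-0.83) and *Saraf*, which encodes an inhibitor of store-operated entry, at 0.77 (-1.41). The call of *Saraf* was lost without WT replicate 1 (adjusted p = 0.17), without WT replicate 2 (0.15) and with the replicate block (0.063). *Stim2*, the sensor of small store losses, had a log2 difference of 0.35 and was not called (adjusted p = 0.29). Of 7 pumps and membrane channels, 3 rose on the TMM scale. *Atp2a3*, a calcium pump of the endoplasmic reticulum in blood cells, had 20.5 ± 0.49 CPM against 103 ± 16.1 CPM (log2 2.34, adjusted p = 1.1e-07; 0.16 on the T cell receptor scale). The potassium channel gene *Kcna3*, whose channel maintains the driving force for calcium entry in T cells, was at 2.41 (0.23) and the plasma membrane pump gene *Atp2b4* at 1.91 (-0.26). *Atp2b1*, a further plasma membrane pump gene, was at -0.010 (adjusted p = 0.98).

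Genes of calmodulin and of the immunophilins that bind calcineurin-blocking drugs included those that fell. Among the calmodulin genes, *Calm2* fell by 0.71 on the log2 scale (adjusted p = 0.014), from 650 ± 4.57 to 398 ± 62.7 CPM. Among 7 tested genes of other calcineurin subunits, inhibitors and anchors, 3 rose and 2 fell on the TMM scale. The genes that fell were *Ppia*, which encodes cyclophilin A, the binding partner of ciclosporin (790 ± 7.31 against 393 ± 32.2 CPM, log2 -1.01, adjusted p = 0.00086), and *Fkbp1a*, which encodes FKBP12, the binding partner of tacrolimus (-0.61, adjusted p = 0.037). The call of *Fkbp1a* was lost without WT replicate 1 (-0.41, adjusted p = 0.50), without WT replicate 2 (adjusted p = 0.095) and with the replicate block (0.16), and that of *Calm2* without WT replicate 1 (0.17), without WT replicate 2 (0.15) and with the block (0.080). Markers of other cells were also called lower: 3 of 5 epithelial genes (the other 2 were higher; summed CPM 420 to 441 under WT against 223 to 234 under CD4/ALK4-KO) and 2 of 4 fibroblast genes (3034 to 3705 against 1992 to 2581). Their part in the falls was not tested. *Ppp3cc* rose with a log2 difference of 1.22 (adjusted p = 0.00029; -0.96 on the T cell receptor scale) and the inhibitor gene *Cabin1* with 1.15 (-1.03), a call that was lost without WT replicate 1 (adjusted p = 0.072). *Rcan2* was not called (-0.16). *Ppp3r2*, the testis form of the regulatory subunit, had 0 counts in every library.

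Among 8 tested genes of the list that holds *Nfatc4*, NFAT kinases and partners, 3 rose and 1 fell on the TMM scale. The kinases DYRK1A and DYRK2 phosphorylate NFAT and oppose calcineurin, and *Dyrk1a* was at 0.59 (adjusted p = 0.045; -1.58 on the T cell receptor scale) and *Dyrk2* at 0.76 (adjusted p = 0.040; -1.42). *Nfatc2ip*, whose product binds NFATc2, was at 1.53 (-0.66), and *Homer3*, whose product binds NFAT, fell by 0.77 (adjusted p = 0.043). The calls of *Dyrk1a*, *Dyrk2* and *Homer3* were near the threshold: each was lost without WT replicate 1 (adjusted p 0.32 to 0.34), without WT replicate 2 (0.16 to 0.27), without CD4/ALK4-KO replicate 2 (0.096 to 0.18) and with the replicate number as a block (0.12 to 0.15), and that of *Homer3* also in the DESeq2 Wald test (0.063). The kinase gene *Csnk1a1* was at 0.48 and not called (adjusted p = 0.10), but was called at 0.65 without CD4/ALK4-KO replicate 2 (adjusted p = 0.0017).

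Of 16 tested NFAT target genes of T cells, 12 rose and 0 fell on the TMM scale, with a median of 1.37. Over all genes tested, 17.4% were called higher and 15.4% lower on that scale. On the T cell receptor scale the median was -0.80, with 1 called higher and 9 lower, again beside 92.0% lower over all genes tested. The list holds *Pdcd1* and *Lag3*, which the study named from these libraries, so it is not independent evidence of direction. Those that rose include *Dgka*, a diacylglycerol kinase that dampens receptor signalling (79.4 ± 2.13 against 434 ± 42.1 CPM, log2 2.45; 0.27 on the T cell receptor scale), *Tnfrsf9*, a costimulatory receptor (0.78; -1.40), the ubiquitin ligase gene *Cblb* (1.10; -1.07) and *Pdcd1*, which encodes PD-1 (2.39; 0.23). The others that rose were *Il2ra* (2.98; 0.79), *Il21* (2.83; 0.69), *Cd40lg* (2.42; 0.25), *Ifng* (1.63; -0.55), *Lag3* (1.55; -0.60), *Fasl* (1.40; -0.78), *Tnf* (1.34; -0.83) and *Egr2* (1.23; -0.91). *Il21* was scarce, with 17 and 5 counts under WT. The gene called higher on the T cell receptor scale was *Il2ra* (adjusted p = 0.013). *Nr4a1*, an immediate early gene, had 1207 and 969 counts under WT and 701 and 1739 under CD4/ALK4-KO and was not called (0.32, adjusted p = 0.54). It was 0.85 and called without CD4/ALK4-KO replicate 1 (adjusted p = 0.00024) and -0.45 without CD4/ALK4-KO replicate 2. The call of *Tnfrsf9* was lost without WT replicate 1 (adjusted p = 0.17) and without WT replicate 2 (0.087). Of 4 tested tonicity targets of NFAT5, 0 rose and 1 fell: *Slc5a3*, the inositol transporter gene, had 109 ± 28.4 CPM under WT and 35.6 ± 8.35 CPM under CD4/ALK4-KO (log2 -1.61, adjusted p = 2.4e-05), and *Slc38a2*, an amino acid transporter gene, was at 0.30 and not called.

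**Figure D4:**
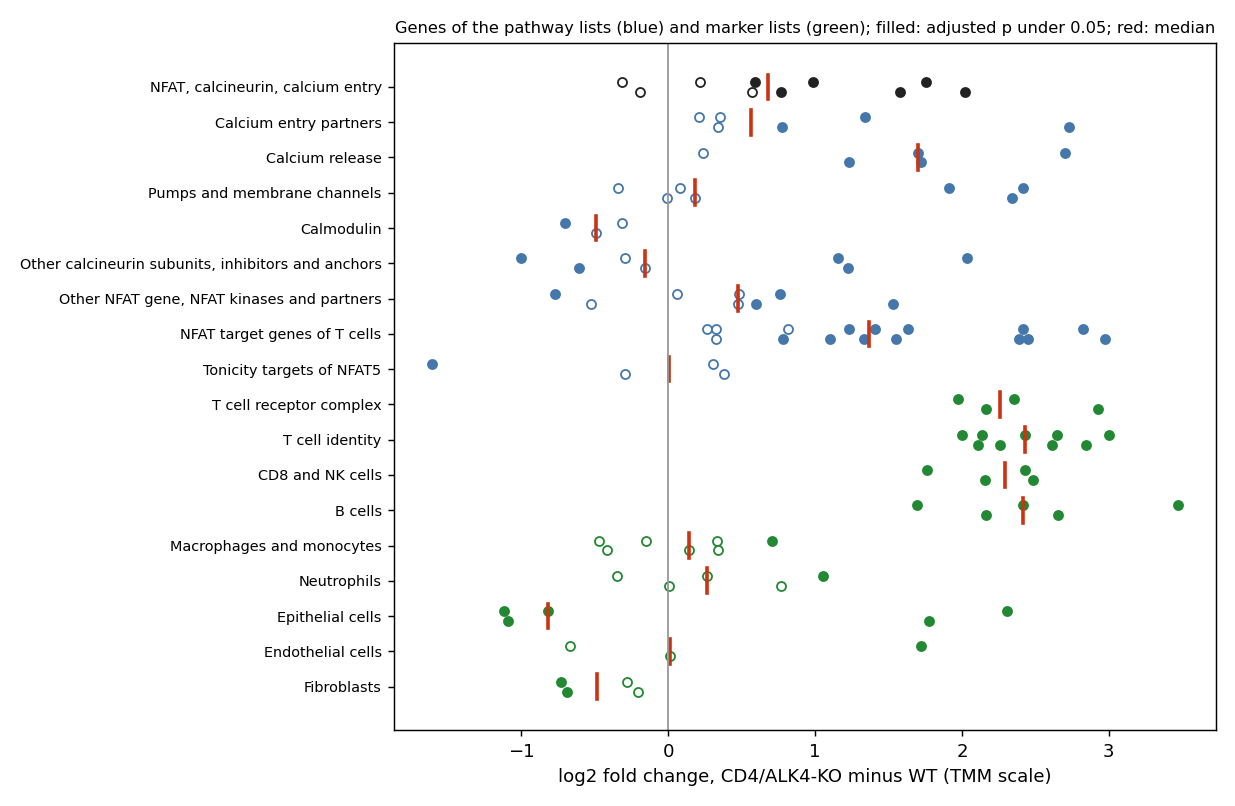
Log2 fold change (x axis, CD4/ALK4-KO minus WT, TMM scale) of every tested gene of the 10 described genes (black), the 8 pathway lists (blue) and the cell type marker lists (green), filled at an adjusted p under 0.05, with a red line at each median. The medians of the T cell, CD8 and NK cell and B cell markers lie at 2.26 to 2.43, above those of all pathway lists, whose medians are all negative on the T cell receptor scale.

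The genes whose pattern was most like that of *Nfatc1* were found by Euclidean distance between centred log2 CPM over the 4 libraries, among 10450 genes whose mean count reached 100. They were *Unc13d* (distance 0.039), *Notch1* (0.086), *Ttc38* (0.088), *Il21r* (0.092) and *Pitpnc1* (0.15). *Unc13d*, for example, had 14.1 and 10.4 CPM under WT and 35.3 and 47.8 CPM under CD4/ALK4-KO. With 4 libraries this is a description of likeness alone.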

How the data were processed

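RNA-Seq counts of 4 libraries (2 labelled WT, 2 labelled CD4/ALK4-KO) were used. The authors used HISAT2 for alignment to mm10 and HTSeq (intersection non-empty) for counting, and deposited raw counts; annotation, strand option and tool versions are not given in the sources used here. The replicates differed beyond sampling noise (chi-square per degree of freedom 16.1 and 28.7). P-values rest on the spread between 2 libraries per label, which the fit draws toward that of all genes tested. How far this is a spread between mice is not known.

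The counts were tested with edgeR 4.0.16 (R 4.3.3): filterByExpr (13919 of 25239 genes), TMM, robust quasi-likelihood test with genotype as the only term, Benjamini-Hochberg adjustment over all genes tested. Each standard error was obtained from the log2 fold change and the F statistic (its size over sqrt F). Alternatives were DESeq2 1.42.0 (Wald test, or its size factors in edgeR), T cell receptor scaling, no filter, each library left out, and the replicate number as a block. Receptor constant region genes were not used for that scaling.

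Positions and exonic lengths are from GENCODE M21 (GRCm38), and promoters from RefSeq (GRCm38.p6). The sequence of *Nfatc1* is not shown, and for *Ppp3ca* no entry was found. The genes and lists were chosen with earlier results of these data known. The study had already reported a rise of several NFAT family genes from these libraries, so their rise here is not independent of it. Named were the 10 genes and, per list, up to 4 called genes with the highest CPM plus the highest one not called. *Lyz2*, *Cd8a*, *Rcan3*, *Ppp3r2*, *Lag3*, *Nfatc4*, *Orai3*, *Il2ra*, *Il21*, *Cd40lg*, *Ifng*, *Fasl*, *Tnf* and *Egr2* lie outside this rule and were named after their values were seen. The same holds for *Csf1r*, *Cd14*, *Fcgr1*, *Adgre1*, *Mrc1* and *Cd68*. One gene that the rule names is not reported here.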

Additional observations from a re-analysis of the deposited data

How the results depend on the processing

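Scaling to the T cell receptor genes changed the results most: 48 genes were called higher and 12803 lower, with 0 and 8 of the 10 genes and 1 and 41 pathway genes. There *Nfatc1* (-0.41), *Nfatc2* (-0.14), *Nfatc3* (-0.62), *Nfat5* (-1.43), *Ppp3cb* (-1.61), *Ppp3r1* (-1.98), *Stim1* (-1.20) and *Orai1* (-1.60) turned negative, as did *Saraf* (-1.41), *Orai2* (-0.83), *Stim2* (-1.82), *Itpr1* (-0.49), *Itpr3* (-1.92), *Plcg1* (-0.45), *Plcg2* (-0.94), *Atp2b4* (-0.26), *Ppp3cc* (-0.96), *Cabin1* (-1.03), *Dyrk1a* (-1.58), *Dyrk2* (-1.42), *Nfatc2ip* (-0.66), *Csnk1a1* (-1.72), *Tnfrsf9* (-1.40), *Cblb* (-1.07), *Nr4a1* (-1.82), *Slc38a2* (-1.89) and *Acvr1b* (-2.01). The scaling itself lowers genes relative to the receptor genes. With DESeq2's test or size factors and without the filter, 6 of the 10 genes were called higher in each case. Leaving out 1 library gave 1103 to 2923 genes higher, 754 to 2618 lower, 3 to 6 of the 10 genes higher and 2 to 6 pathway genes lower, with the fewest of the 10 without WT replicate 1. Of the named genes it moved 5 across 0, none of them called with all libraries: *Acvr1b* (-0.065 to 0.39), *Atp2b1* (-0.19 to 0.17), *Itpr3* (-0.23 to 0.62), *Nr4a1* (-0.45 to 0.85) and *Rcan2* (-0.45 to 0.19). Without CD4/ALK4-KO replicate 1, *Nr4a1* and *Itpr3* were called higher. With the replicate block 1768 genes were higher, 1444 lower, 5 of the 10 higher (*Ppp3cb* lost its call), 2 pathway genes lower, and *Atp2b1* was at 0.00073. Deviations of same-numbered libraries had a weak negative correlation (-0.24). The crossed replicate block, added after seeing the data because of that sign, called 3118 genes higher and 3037 lower. It called 7 of the 10 higher, with *Atp2b1* at 0.00065. Of the 10 genes, *Nfatc2* had the lowest counts.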
